A study of Mus musculus with 8 samples.

Results

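Rag1-Tbet DKO mice lack both *Rag1*, without which T and B cells do not form, and *Tbx21*, which encodes T-bet, the transcription factor that type 1 innate lymphoid cells (ILC1s) need, while they keep conventional natural killer (NK) cells that express Eomes. The comparison described here is that of liver after ischemia-reperfusion injury (IRI) with uninjured liver in these mice on a normal diet (ND), which uses 2 of the 8 pools measured, ND Rag1-Tbet DKO IRI and ND Rag1-Tbet DKO non-IRI. It asks which cytokine and chemokine transcripts differ after injury in these mice. The study reported that after IRI their ILC1s were nearly absent. It also reported that their NK cells lacked the terminally mature stage and had less perforin than those of *Rag1*-/- mice. All 84 genes of a quantitative PCR array for cytokines and chemokines were described, with 5 housekeeping genes beside them.

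Mice had received standard chow from week 4 of life for 12 to 15 weeks. IRI mice had their hepatic hilus clipped for 45 minutes of partial warm ischemia, were sutured and had 24 hours of reperfusion. Control mice underwent anesthesia, laparotomy without the clip and collection of blood and liver, and the methods describe no recovery period for them. Per the methods, IRI mice gave their left lobe and controls the whole organ. If the array RNA followed this scheme, injury, recovery from surgery and the part of the liver sampled cannot be told apart. RNA of at least 3 livers was pooled in equal parts for each condition and each gene was read in 1 well, so that no replicate error exists and no test was run. In bulk liver, fewer cells of a type and less RNA per cell cannot be told apart. *Rag1* and *Tbx21* are not on the array, and the genotype was therefore not checked here.

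After liver ischemia, dying hepatocytes and activated Kupffer cells release signals that draw neutrophils and then monocytes from the blood. CXC chemokines such as CXCL1 act on neutrophils through CXCR2, CC chemokines such as CCL2 act on monocytes through CCR2, and the CXCR3 ligands CXCL9, CXCL10 and CXCL11 are induced by interferons and act on T and NK cells. Cytokines that signal through gp130, among them IL-6, IL-11 and oncostatin M, act on hepatocytes and stromal cells during injury and regeneration. IFN-γ from ILC1s and NK cells is a main inducer of the CXCR3 ligands.

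Each value is a Ct, the PCR cycle at which the product crosses the detection threshold, and 1 cycle less is about a 2-fold higher level. The highest Ct in the table was 35, which was treated as the limit of detection. The log2 fold was computed as the negative ΔΔCt against *Actb*, *Hsp90ab1* and *Gapdh* (their mean Ct in the same pool), and a gene was counted as higher or lower from a 2-fold difference. Of the 84 genes, 78 were below the limit in the non-IRI pool and 76 in the IRI pool, and 74 in both. *Osm* and *Il12a* were at the limit only in the non-IRI pool and *Ccl12*, *Cd40lg*, *Il3* and *Il22* only in the IRI pool, so that these 6 have a bound, whereas *Ccl1*, *Cd70*, *Il21* and *Il24* were at the limit in both and have no fold.

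Raw Ct was higher in the IRI pool for each of the 5 housekeeping genes. *Actb*, a cytoskeletal actin, went from 14.69 to 16.27, *Hsp90ab1*, a chaperone, from 15.39 to 16.65, and *Gapdh*, a glycolytic enzyme, from 14.48 to 16.34. *Gusb* went from 19.55 to 21.02 and *B2m*, the light chain of MHC class I, from 12.36 to 14.60. The mean Ct of the 3 references was 1.57 cycles higher after IRI, and their own log2 folds ranged from -0.29 to 0.31 with an SD of 0.30, a spread narrowed by scaling to their own mean. Over all 5 housekeeping genes the range was -0.67 to 0.31 and the SD 0.38, which is the yardstick for a log2 fold in this comparison. This SD still includes the 3 references and rests on genes read between Ct 12.36 and 21.02. It does not measure the error of wells read later. Several array genes that liver expresses constitutively had a like difference in raw Ct. Among the constitutive tissue and secreted factors described below, *Spp1* (-0.25 cycles) and *Adipoq* (2.70 cycles) lay outside the range of the housekeeping genes. *Hc*, which encodes complement C5 and is made by hepatocytes, went from 14.78 to 16.48, and *Thpo*, the hepatocyte-derived thrombopoietin gene, from 20.73 to 22.42. Both hepatocyte genes were thus detected in both pools. *Nodal*, *Il9* and *Csf1*, the references that the web tool selected for this genotype, had nearly the same mean Ct in both pools (26.66 and 26.73), *Nodal* going from 25.77 to 26.47, *Csf1* from 22.49 to 22.85 and *Il9* from 31.72 to 30.86. With these 3 genes as references every log2 fold was lower by 1.5, so that genes with a log2 fold between 0 and 1.5 turn from higher to lower, whereas the order of the genes stays the same.

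**Figure D1:**
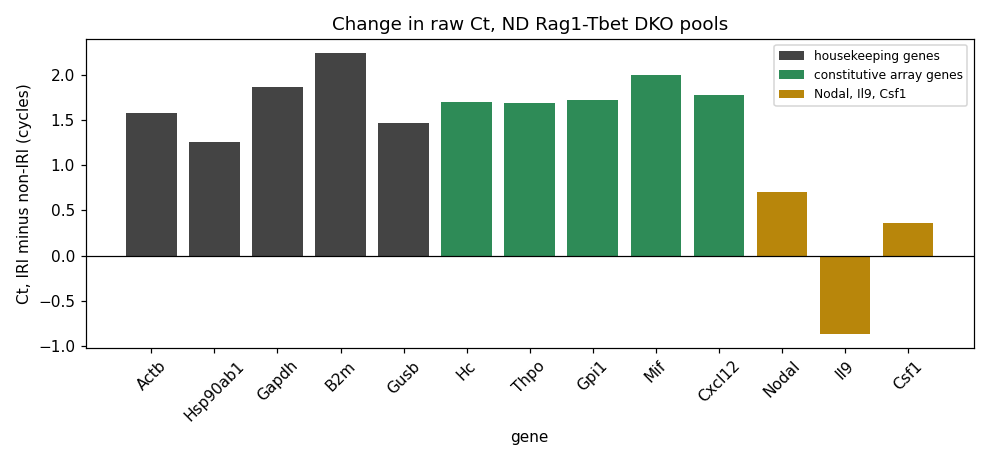
Ct in the IRI pool minus Ct in the non-IRI pool (y axis, cycles) for 5 housekeeping genes, 5 constitutively expressed array genes and the genes *Nodal*, *Il9* and *Csf1*, 1 well per gene and pool. The constitutive genes drawn are a selection: *Hc*, *Thpo*, *Gpi1*, *Mif* and *Cxcl12*. The bars of the housekeeping and constitutive genes lie between 1.26 and 2.24 cycles, and those of *Nodal*, *Il9* and *Csf1* between -0.86 and 0.70.

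Set against *Actb*, *Hsp90ab1* and *Gapdh*, 41 of the 84 genes (48.8%) were at least 2-fold higher after IRI and 6 (7.14%) at least 2-fold lower. The median log2 fold of the 74 genes measured in both pools was 1.20 and serves below as the level of the array against which a group of genes is read. The median of a group likewise covers only its genes measured in both pools and leaves out those with a bound. With *Nodal*, *Il9* and *Csf1* as references 19 genes (22.6%) were higher and 36 (42.9%) lower, and the median was -0.30. The difference between a group's median and that of the array does not depend on the references.

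**Figure D2:**
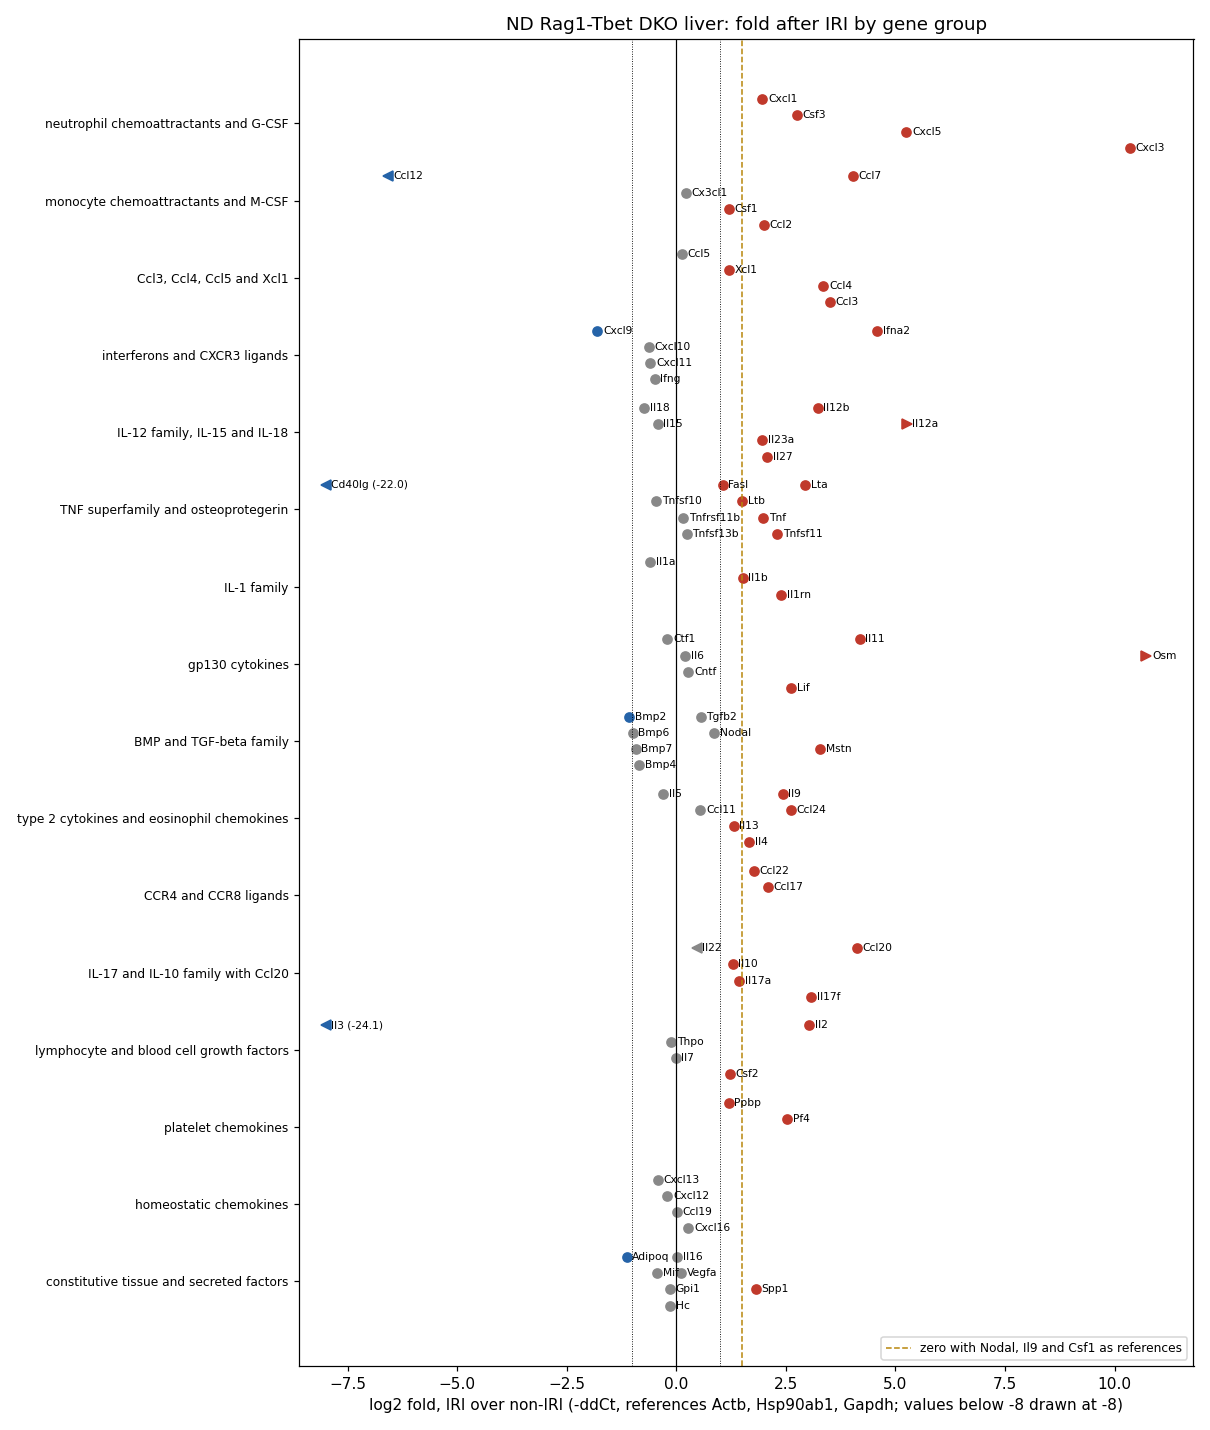
Log2 fold of IRI over non-IRI in ND Rag1-Tbet DKO liver (x axis) for the 80 array genes with a fold or a bound, in 16 groups by role (y axis). Circles are measured folds and triangles bounds that point to where the true value lies, red is at least 2-fold higher, blue at least 2-fold lower and grey in between, dotted lines mark 2-fold, the dashed line marks where 0 would lie with *Nodal*, *Il9* and *Csf1* as references, and *Cd40lg* and *Il3* are drawn at -8. Neutrophil chemoattractants lie to the right and most CXCR3 ligands and BMP genes to the left.

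Neutrophil chemoattractants and G-CSF were higher as a group (4 of 4 genes), with a median log2 fold of 4.00, which was 2.80 above that of the array. *Cxcl3*, a CXCR2 ligand, had a Ct of 31.63 without and 22.85 with IRI, a log2 fold of 10.35, the largest measured in both pools. *Cxcl5*, another CXCR2 ligand, went from 30.23 to 26.55 and was 38.0-fold higher. *Csf3*, which encodes the neutrophil growth factor G-CSF, went from 31.65 to 30.47 and was 6.71-fold higher. *Cxcl1*, already at 21.32 without injury, was at 20.92 after it and 3.91-fold higher. All 4 had a lower Ct in the IRI pool although the references had a higher one. With *Nodal*, *Il9* and *Csf1* as references all 4 had folds above 1, and *Cxcl1* (1.38-fold) was no longer 2-fold higher.

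*Cxcl3* and *Cxcl1* lie in 1 cluster of CXC chemokine genes on mouse chromosome 5, and *Cxcl9* lies farther along the same chromosome. The windows from 250 bases before to 50 bases after the annotated transcription start (RefSeq, GRCm38.p6) are shown because *Cxcl3* and *Cxcl9* had the highest and the lowest of the measured folds and *Cxcl1* is the neighbour of *Cxcl3*. They were chosen after the values and the matches had been seen. Capitals mark the κB motif, to which NF-κB proteins bind, searched on both strands as GGG, any 2 bases and then TTTCC or TTCCC, forms that may overlap each other.
Cxcl3: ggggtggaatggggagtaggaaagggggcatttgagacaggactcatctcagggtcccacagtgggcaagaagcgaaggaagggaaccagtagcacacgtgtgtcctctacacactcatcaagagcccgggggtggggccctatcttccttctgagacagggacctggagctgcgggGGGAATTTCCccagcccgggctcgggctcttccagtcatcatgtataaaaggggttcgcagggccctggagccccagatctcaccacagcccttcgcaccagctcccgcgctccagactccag
Cxcl1: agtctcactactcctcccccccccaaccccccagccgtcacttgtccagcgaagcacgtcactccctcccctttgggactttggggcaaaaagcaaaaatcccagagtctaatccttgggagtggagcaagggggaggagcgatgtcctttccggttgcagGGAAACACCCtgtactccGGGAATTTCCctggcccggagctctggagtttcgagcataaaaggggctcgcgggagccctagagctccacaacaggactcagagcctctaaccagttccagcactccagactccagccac
Cxcl9: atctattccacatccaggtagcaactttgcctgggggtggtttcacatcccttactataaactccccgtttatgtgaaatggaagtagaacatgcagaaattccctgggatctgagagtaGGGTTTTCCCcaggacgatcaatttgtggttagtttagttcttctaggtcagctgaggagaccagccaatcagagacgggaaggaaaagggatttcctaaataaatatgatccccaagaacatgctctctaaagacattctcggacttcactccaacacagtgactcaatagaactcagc
They are chr5:90785851-90786150 (+ strand), chr5:90890995-90891294 (+ strand) and chr5:92328030-92328329 (- strand). The motif began 73 bases before the start in *Cxcl3* and 130 bases before it in *Cxcl9*, and *Cxcl1* held 2 matches. Among all 32851 windows 3.24% held a κB match, and of the 62 array genes with a window 12 (19.4%) did. A match was found for 7 of 31 genes that were higher, 1 of 4 that were lower and 4 of 25 within 2-fold, so that windows with these letters belonged to genes in each class. *Ccl3*, *Il11* and *Il12b*, all higher, had a window with no match. Of the 4 motifs searched, the interferon-stimulated response element (TTTC, any 2 bases, TTTC) was in 3.44% of all windows and in 7 array genes, the GAS motif (TTCNNNGAA) in 8.30% and in 5, and the heat shock element (TTC, any 2 bases, GAA, any 2 bases, TTC) in 0.603% and in none. A match is a description of the letters and not of binding.

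Monocyte chemoattractants and M-CSF had 3 of 5 genes higher and 1 lower, against 48.8% higher in the array. *Ccl7*, a CCR2 ligand, went from 25.31 to 22.85 and was 16.3-fold higher. *Ccl2*, the main CCR2 ligand in liver injury, went from 22.41 to 21.98 and was 3.99-fold higher. With *Nodal*, *Il9* and *Csf1* as references *Ccl7* was 5.76-fold and *Ccl2* 1.41-fold higher. The median log2 fold of the 4 genes of the group measured in both pools, which leaves out *Ccl12*, was 1.60, or 0.10 with *Nodal*, *Il9* and *Csf1*. *Csf1*, the growth factor of macrophages, was 2.31-fold higher and turned to 1.23-fold lower with *Nodal*, *Il9* and *Csf1* as references. *Cx3cl1*, which encodes the ligand of CX3CR1 on monocytes, was 1.16-fold higher, within the yardstick. *Ccl12*, a further CCR2 ligand of mice, stood against the rest of the group. Its Ct was 26.86 without IRI and at the limit of 35 after IRI, so that it was at least 95.2-fold lower. In the other 6 pools of the series its Ct lay between 22.83 and 29.31, and the IRI pool was 4.95 cycles beyond them on the ΔCt scale. This call rests on a single well.

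Among chemokines that activated macrophages and NK cells make, *Ccl3* went from 26.41 to 24.48 and was 11.3-fold higher, and *Ccl4* went from 26.69 to 24.9 and was 10.2-fold higher. *Ccl5*, which NK cells also make, went from 24.40 to 25.84 and was 1.09-fold higher, less than the yardstick. *Xcl1*, the lymphotactin of NK cells and ILC1s that attracts cross-presenting dendritic cells, was 2.31-fold higher, or 1.23-fold lower with *Nodal*, *Il9* and *Csf1*. These 4 genes thus lay both near 0 and far above the level of the array.

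The CXCR3 ligands were the chemokines with the lowest measured folds. *Cxcl9* went from 25.88 to 29.25 and was 3.49-fold lower, the smallest log2 fold (-1.80) of the 74 measured genes. *Cxcl10* went from 22.04 to 24.23 and was 1.54-fold lower, and *Cxcl11* went from 26.79 to 28.95 and was 1.51-fold lower, both within 2-fold. *Ifng*, the gene of the cytokine that induces them, went from 29.38 to 31.44 and was 1.41-fold lower, also within 2-fold. These 4 genes lay below 0 against *Actb*, *Hsp90ab1* and *Gapdh*. *Nodal*, *Il9* and *Csf1* lower every log2 fold by 1.5 and could not have brought them above 0. With those references they were between 3.98-fold and 9.87-fold lower. *Ifna2*, a type I interferon gene, differed from them. It went from 31.76 to 28.74 with a log2 fold of 4.59, and whether the assay separates it from the other, closely related *Ifna* genes is not given in the sources used here. The median of the 5 genes was 1.80 below that of the array on the log2 scale.

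Cytokines that stimulate ILC1s and NK cells fell into separate classes. *Il12b*, the p40 subunit of IL-12 and IL-23, went from 31.62 to 29.96 and was 9.36-fold higher, and *Il12a*, the p35 subunit of IL-12, went from the limit to 31.31 and was at least 38.2-fold higher, a bound on the log2 scale of 5.26 that fell to 2.26 with a Ct limit of 32. *Il23a*, which pairs with p40 to form IL-23, was 3.88-fold higher and *Il27*, a subunit of IL-27, was 4.22-fold higher. In contrast, *Il15*, which maintains NK cells and ILC1s, went from 22.83 to 24.82 and was 1.34-fold lower. *Il18*, a cytokine that amplifies IFN-γ production together with IL-12, went from 19.18 to 21.48 and was 1.66-fold lower. The IL-12 family members were detected late, between Ct 28.34 and 31.62 where measured, and *Il15* and *Il18* before Ct 25, so that the higher genes of the group were those read later.

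In the TNF superfamily, 5 of 10 genes were higher and 1 lower, a share near the 48.8% of the array. The median log2 fold was 1.28, close to the 1.20 of the array, or -0.22 with *Nodal*, *Il9* and *Csf1*. The lower gene was *Cd40lg*, whose well in the non-IRI pool stood apart as described further on. *Tnf* went from 27.41 to 26.99 and was 3.96-fold higher. *Lta*, which encodes lymphotoxin-α, was 7.71-fold higher on a late Ct in both pools (32.55 and 31.17), and its partner *Ltb* was 2.82-fold higher. *Tnfsf11*, the gene for RANKL, was 4.95-fold higher, whereas *Tnfrsf11b*, which encodes its decoy receptor osteoprotegerin, was 1.11-fold higher. The death ligands differed in sign. *Fasl* went from 29.93 to 30.44 and was 2.08-fold higher, at the edge of the threshold and 1.36-fold lower with *Nodal*, *Il9* and *Csf1*, and *Tnfsf10*, the gene for TRAIL, went from 22.31 to 24.34 and was 1.38-fold lower. *Tnfsf13b*, the B cell survival factor BAFF, was 1.18-fold higher.

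Of the gp130 cytokines, 3 of 6 were higher and none was lower, a share near the 48.8% of the array. The median log2 fold of the 5 genes measured in both pools was 0.28, which was 0.93 below that of the array. This median leaves out *Osm*, the highest of the group, so that nothing is read from its place below the array. *Osm*, which encodes oncostatin M, was at the limit without IRI and at 25.84 after IRI, a log2 fold of at least 10.73. It was read between 25.01 and 30.34 in the other 6 pools, and its well in the non-IRI pool was 5.09 cycles beyond them on the ΔCt scale. The raw Ct after IRI lay within that range. *Il11* went from 32.09 to 29.47 and was 18.2-fold higher, and *Lif*, the leukemia inhibitory factor gene, went from 30.32 to 29.27 and was 6.13-fold higher. *Il6*, the hepatocyte-stimulating cytokine of this family, went from 26.77 to 28.13 and was 1.15-fold higher, and *Cntf* (1.21-fold higher) and *Ctf1* (1.15-fold lower) also stayed within 2-fold. With *Nodal*, *Il9* and *Csf1* the first 3 remained at least 2-fold higher and the last 3 were at least 2-fold lower.

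The IL-1 genes also differed among themselves. *Il1b*, the secreted inflammatory form made by myeloid cells, had nearly the same Ct in both pools (20.88 and 20.93) and was 2.86-fold higher, or 1.01-fold higher with *Nodal*, *Il9* and *Csf1*. *Il1rn*, which encodes the antagonist of the IL-1 receptor, went from 22.80 to 21.97 and was 5.27-fold higher, or 1.86-fold higher with those references. *Il1a*, an alarmin kept in cells, went from 20.54 to 22.70 and was 1.51-fold lower.

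BMP genes were the group farthest below the array, with a median of the 7 BMP and TGF-β family genes 2.06 below that of all array genes. Genes that the other 6 pools read early also lay below the array. Their median log2 fold was -0.12 for a mean Ct below 22 and 0.13 for one between 22 and 26. *Bmp2*, *Bmp4*, *Bmp6* and *Bmp7* were read before Ct 26 in every pool. *Bmp2*, which endothelial cells of the liver sinusoids make, went from 19.99 to 22.63 and was 2.10-fold lower, at the edge of the threshold. Its log2 fold was -0.96 with the 5 housekeeping genes as references and -0.92 without *Hsp90ab1*, both within 2-fold. *Bmp6*, the sinusoidal signal for hepcidin and iron control, went from 21.93 to 24.49 and was 1.99-fold lower, just inside the threshold. *Bmp7* went from 23.36 to 25.85 and was 1.90-fold lower, and *Bmp4* went from 21.98 to 24.40 and was 1.81-fold lower. The log2 folds of the 4 BMP genes lay between -1.07 and -0.85. *Nodal*, *Il9* and *Csf1* as references lower each by 1.5, so that their sign could not have changed. Relative to the 3 references *Bmp2*, *Bmp4* and *Bmp6* were higher in the non-IRI pool than in any other of the 8 pools. Their levels after IRI lay within those of the other 6. *Bmp7* lay within those of the other 6 in both pools. *Tgfb2* (1.47-fold higher) and *Nodal* (1.82-fold higher) stayed within 2-fold, and *Mstn*, the muscle growth inhibitor myostatin, was 9.69-fold higher on late Ct values of 32.55 and 30.84.

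Type 2 cytokines with eosinophil chemokines and the IL-17 and IL-10 group each had 4 of 6 genes higher, against 48.8% of the array. The median log2 fold was 1.48 in the former, 0.28 above that of the array, and 2.26 in the latter, 1.06 above it, or -0.02 and 0.76 with *Nodal*, *Il9* and *Csf1*. Among the type 2 genes, *Ccl24*, an eotaxin, went from 27.34 to 26.29 and was 6.13-fold higher. *Il9* was 5.38-fold, *Il4* 3.15-fold and *Il13* 2.47-fold higher, whereas *Ccl11*, another eotaxin, was 1.46-fold higher and *Il5* 1.23-fold lower. The CCR4 ligands *Ccl17* (4.28-fold) and *Ccl22* (3.40-fold), which attract type 2 and regulatory T cells, were both higher. In the group of IL-17 and IL-10 family genes, *Ccl20*, the CCR6 ligand induced by IL-17, went from 31.75 to 29.19 and was 17.5-fold higher. *Il17f* went from 27.25 to 25.74 and was 8.44-fold higher, *Il17a* 2.71-fold and *Il10*, which restrains macrophages, 2.44-fold, whereas *Il22* was at 33.90 without IRI and at the limit after it and has only an upper bound of 1.38-fold higher. *Il17a* was at the limit in the other 6 pools and at 31.79 and 31.92 in these.

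Both platelet chemokines were higher as well. *Pf4*, the platelet factor 4 gene, went from 23.92 to 22.95 and was 5.80-fold higher, and *Ppbp*, the precursor of the platelet chemokine CXCL7, went from 23.39 to 23.76 and was 2.29-fold higher, or 1.23-fold lower with *Nodal*, *Il9* and *Csf1*. Among 7 constitutive tissue and secreted factors, with a median log2 fold of -0.13, *Spp1* alone was higher. *Spp1*, which encodes osteopontin and is made by macrophages and bile duct cells, went from 17.05 to 16.80 and was 3.52-fold higher. In contrast, none of the 4 homeostatic chemokines passed 2-fold, and all 4 were at least 2-fold lower with *Nodal*, *Il9* and *Csf1*. *Ccl19* had nearly the same level in both pools and *Cxcl13*, which organises lymphoid tissue, was 1.34-fold lower, and *Cxcl12*, the stromal CXCR4 ligand, was 1.15-fold lower and *Cxcl16* 1.21-fold higher. Also within 2-fold were *Gpi1* (1.11-fold lower), *Hc* (1.10-fold lower), *Thpo* (1.09-fold lower), *Vegfa* (1.08-fold higher), *Il16* (1.01-fold higher), *Mif* (1.35-fold lower) and the lymphocyte factor *Il7* (1.01-fold lower). *Adipoq*, an adipocyte hormone, was 2.19-fold lower on Ct values of 31.18 and 33.88, and with a Ct limit of 32 it had only an upper bound, a log2 fold of at most 0.75.

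The wells of *Il3*, *Cd40lg* and *Csf2* stood apart in the non-IRI pool. *Il3*, a growth factor of activated T cells and mast cells, was read at Ct 9.36 in the non-IRI pool and at the limit in the IRI pool and in the other 6 pools. *Cd40lg*, a ligand on activated T cells, was read at 11.44 in the non-IRI pool, at the limit in the IRI pool, and between 31.37 and 35 in the other 6. Both were earlier than the earliest housekeeping gene of that pool, *B2m* at 12.36, in mice without T cells. The bounds that follow (log2 folds of at most -24.07 and -21.99) therefore rest on 1 well each, and nothing is read from their size or direction. *Csf2*, which encodes GM-CSF, was read early in both pools of this comparison, at 19.59 and 19.94, against 24 to 28.94 in the other 6 pools. Its 2.32-fold higher value after IRI turned to 1.22-fold lower with *Nodal*, *Il9* and *Csf1*. In the non-IRI pool *Cd40lg*, *Csf2*, *Il3* and *Osm* were more than 3 cycles beyond the other 6 pools on the ΔCt scale, as were *Ccl12*, *Csf2* and *Il17a* in the IRI pool. Without *Il3*, *Cd40lg* and *Csf2*, 40 genes were higher and 4 lower, and the 4 were *Ccl12*, *Cxcl9*, *Adipoq* and *Bmp2*.

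**Figure D3:**
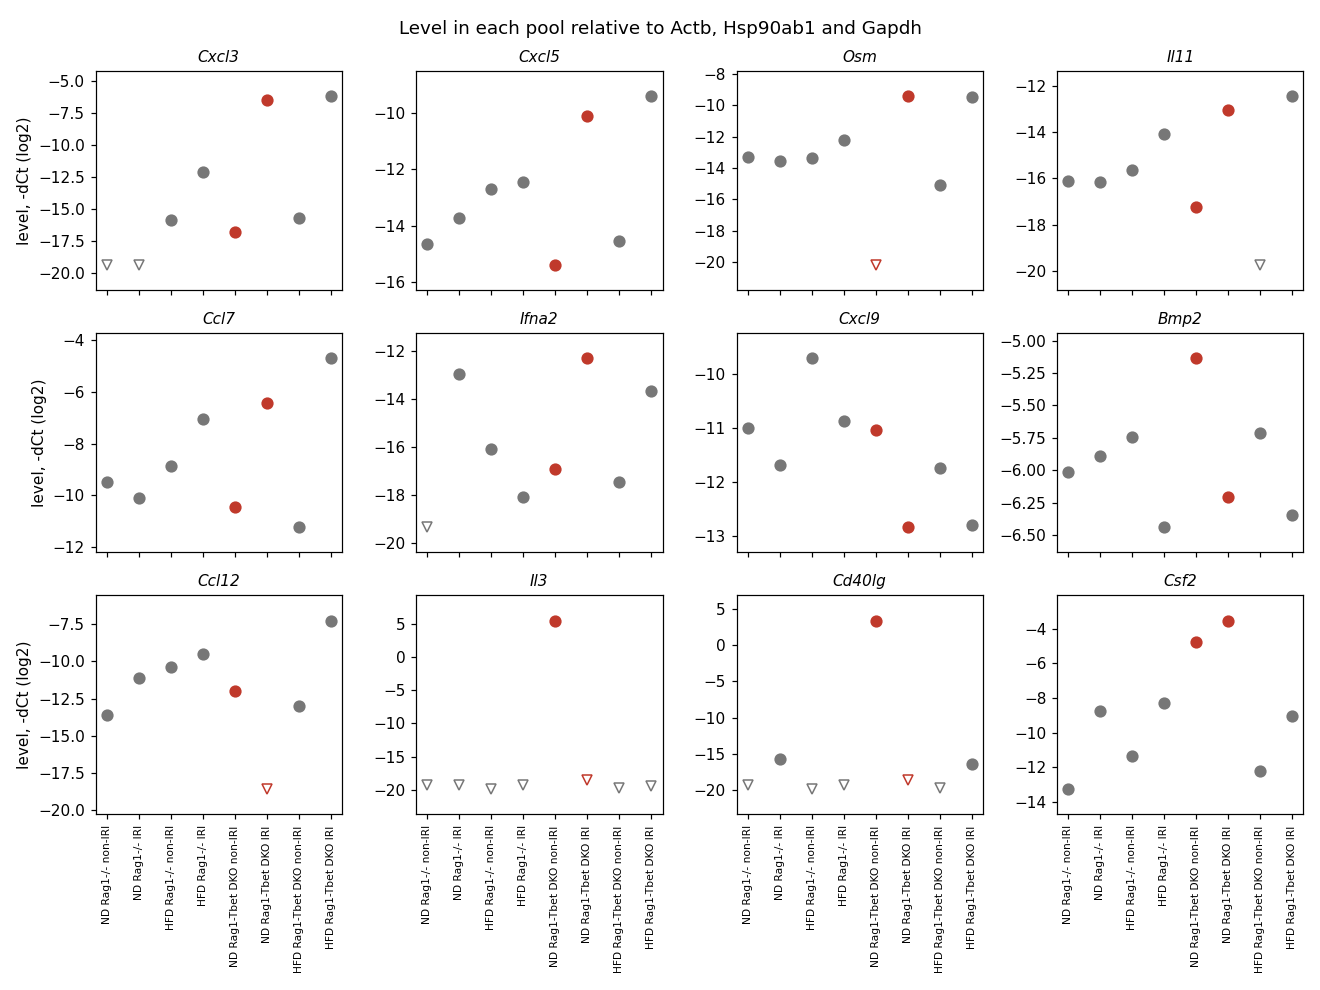
Level of 12 genes in each of the 8 pools (x axis) as the negative ΔCt against *Actb*, *Hsp90ab1* and *Gapdh* (y axis, log2 scale, a separate range for each gene), 1 well per point. Red points are the ND Rag1-Tbet DKO pools, grey points the other 6, and open triangles are wells at the limit of detection. *Cxcl3*, *Cxcl5*, *Il11* and *Ccl7* are higher in the red IRI pool, and *Il3* and *Cd40lg* stand out in the red non-IRI pool alone.

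Of 10 products of ILC1s and NK cells, a list that overlaps the groups above, 7 were higher and none lower. Of all array genes 48.8% were higher, and the median log2 fold of the list, 1.21, was 0.01 above that of the array. The 7 include *Csf2*, whose wells stood apart in both pools, and *Fasl*, at the edge of the threshold. *Ccl3*, *Ccl4* and *Lta* were the highest, and *Ifng* and *Tnfsf10* the lowest. With *Nodal*, *Il9* and *Csf1* 3 were higher and 3 lower. Of 5 genes that T cells are known for, *Il2* (Ct 32.78 and 31.32, 8.15-fold), *Il4* and *Il17a* were higher, *Cd40lg* was lower and *Il21* had no fold, and all but *Cd40lg* were read at Ct 28.64 or later.

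Injury in other pools was set beside these values, with *Actb*, *Hsp90ab1* and *Gapdh* throughout. HFD Rag1-Tbet DKO IRI against HFD Rag1-Tbet DKO non-IRI liver, from mice given a lard-based high-fat diet (HFD) for 12 weeks from week 5 to 7 of life on, and ND *Rag1*-/- IRI against ND *Rag1*-/- non-IRI liver, from mice with ILC1s, share no pool with the comparison described here. On HFD, 44 genes (52.4%) were higher in Rag1-Tbet DKO liver after IRI and 4 (4.76%) lower. Of the 41 genes higher on ND, 35 were also higher on HFD, which is 85.4% of the ND and 79.5% of the HFD list, against the 52.4% and 48.8% of all genes that were higher. Across the 65 genes measured in both, Spearman's rho of the log2 folds was 0.67 as a description, genes not being independent replicates and each pool sharing 1 set of references. The folds on HFD were 734 for *Cxcl3*, 34.8 for *Cxcl5*, 92.4 for *Ccl7* and 48.5 for *Osm*, all higher. Of the CXCR3 ligands, *Cxcl9* was 2.07-fold and *Cxcl11* 1.61-fold lower on HFD, whereas *Cxcl10* was 7.67-fold higher, against 1.54-fold lower on ND.

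In ND *Rag1*-/- liver 29 genes (34.5%) were higher and 6 (7.14%) lower. Of the 41 genes higher in ND Rag1-Tbet DKO liver 16 were also higher there, which is 39.0% of the one and 55.2% of the other list, close to the 34.5% and 48.8% of all genes that were higher. Spearman's rho over the 66 genes measured in both was 0.06. *Cxcl3* was at the limit in both ND *Rag1*-/- pools, *Cxcl5* was 1.88-fold higher, *Ccl7* 1.51-fold lower and *Osm* 1.18-fold lower. *Bmp2*, *Bmp4*, *Bmp6* and *Bmp7* were between 1.04-fold and 1.11-fold higher in ND *Rag1*-/- liver. *Il15* (2.38-fold) and *Tnfsf10* (2.79-fold) were higher there, against the 1.34-fold and 1.38-fold lower values in the absence of T-bet. HFD *Rag1*-/- IRI against HFD *Rag1*-/- non-IRI liver, added after the values had been seen, gave other values for several of these genes. *Cxcl3* was 13.9-fold, *Ccl7* 3.46-fold, *Il11* 2.85-fold and *Osm* 2.13-fold higher there, and *Cxcl5* was 1.20-fold higher, within 2-fold. *Cxcl9* was 2.25-fold, *Bmp2* 1.61-fold, *Il15* 1.42-fold and *Tnfsf10* 1.91-fold lower. These genes are examples, and no share of all genes was taken for this pair. Other genes higher in ND Rag1-Tbet DKO liver were at least 2-fold lower in HFD *Rag1*-/- liver. Among them were *Ccl24* (5.62-fold), *Ifna2* (3.92-fold), *Ccl17* (3.48-fold), *Xcl1* (3.23-fold) and *Il12b* (3.10-fold). With 1 pool a side the difference between genotypes was not tested. Of the 35 genes higher in both Rag1-Tbet DKO comparisons, 21 (60%) were not higher in ND *Rag1*-/- liver, close to the 65.5% of all 84 genes that were not higher there, so that this count is not a result about these genes. They included *Cxcl5*, *Ccl2*, *Ccl7*, *Ccl3*, *Osm*, *Il11*, *Lif*, *Il1b*, *Pf4* and *Ppbp*, and 3 of them, *Cxcl3*, *Il12a* and *Mstn*, were at the limit in both ND *Rag1*-/- pools. The genes higher in all 3 comparisons numbered 14 and included *Cxcl1*, *Ccl4*, *Ccl20*, *Tnf*, *Il1rn*, *Ifna2* and *Spp1*.

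**Figure D4:**
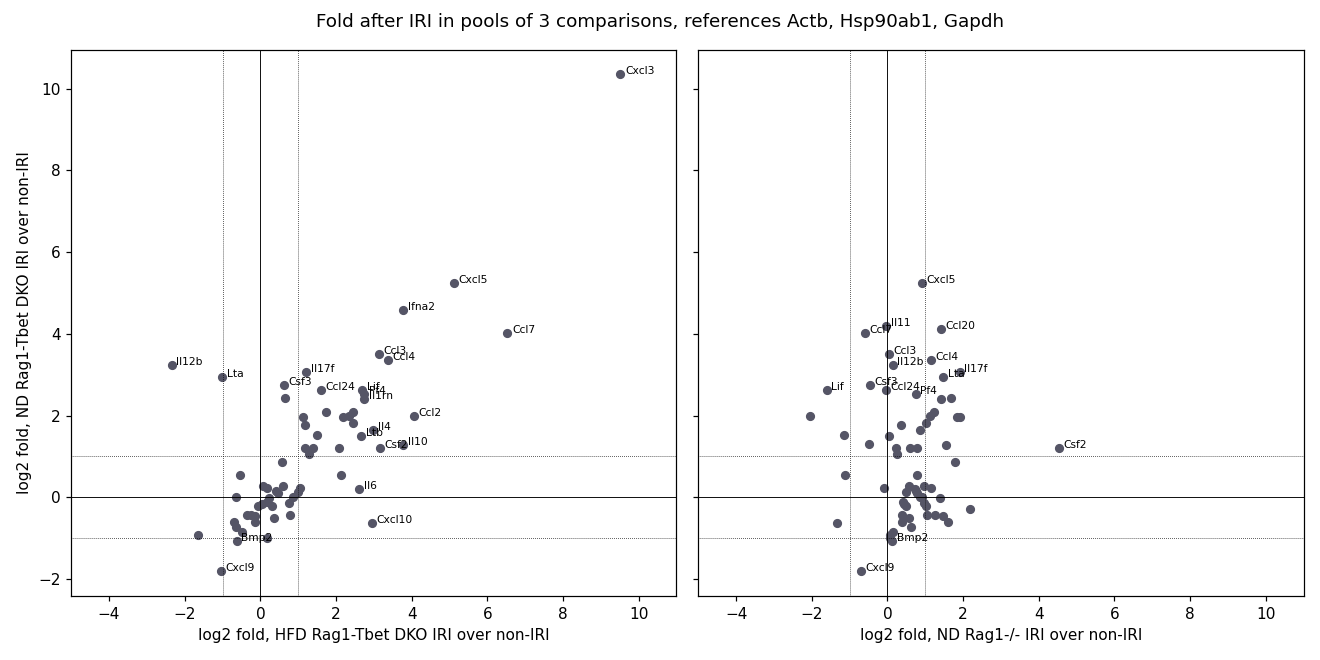
Log2 fold after IRI in ND Rag1-Tbet DKO liver (y axis) against that in HFD Rag1-Tbet DKO liver (left) and ND *Rag1*-/- liver (right), 1 point per gene measured in both, 65 genes on the left and 66 on the right, dotted lines at 2-fold. On the left, *Il12b* and *Lta* are at least 2-fold higher on the y axis and at least 2-fold lower on the x axis. *Csf3* and *Il9* are at least 2-fold higher on the y axis and within 2-fold on the x axis. On the right, of the 32 genes at least 2-fold higher on the y axis, 16 are within 2-fold in *Rag1*-/- liver, 13 are also higher and 3 are lower.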

How the data were processed

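Liver RNA of 8 pooled conditions was measured by the authors on an RT2 Profiler array with SYBR Green. They made cDNA from 1.25 µg of RNA pooled from at least 3 livers and ran 40 cycles. Groups were taken from the sample labels. The authors deposited Ct values per well, with no value above 35 and 79 of 712 wells at 35, and normalized values, a ratio (2 to the power of -ΔCt). A deposited table of the authors' own fold changes was not used. Genes are named as in these tables. Of 89 RefSeq identifiers, 88 matched the GRCm38.p6 gene table, each with the same symbol.

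From the Ct table, ΔCt was taken against the mean of *Actb*, *Hsp90ab1* and *Gapdh*. The negative ΔΔCt is the log2 fold, a bound where 1 pool was at 35. With 1 pool per condition no test, standard deviation between replicates or p-value exists, and precision is limited by the single well and by late Ct. The comparison and the 16 gene groups by role were chosen with earlier results of these data known. All 84 genes are accounted for, with full values for the 10 highest and 10 lowest folds, genes with bounds, genes the study discusses and reference genes. Alternatives were other references, each reference left out, a Ct limit of 32, a 3-fold threshold, the deposited normalized values and 3 wells left out. Folds and calls were tested on simulated data. Calculations ran in Python 3.11.15 with pandas 2.3.3, and plots were drawn with matplotlib 3.10.9. The 4 promoter motifs and the grouping of genes by their Ct in other pools were chosen after the values had been seen.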

Additional observations from a re-analysis of the deposited data

Results flagged for a closer look

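Some genes were at least 2-fold higher in one comparison of IRI with non-IRI liver and at least 2-fold lower in another, all set against *Actb*, *Hsp90ab1* and *Gapdh*. Each value comes from 1 pool a side, and the differences were not tested. Between ND Rag1-Tbet DKO and ND *Rag1*-/- liver, the chemokine *Ccl2* had log2 folds of 2.00 and -2.05, the cytokine *Lif* of 2.62 and -1.61, and *Il1b* of 1.52 and -1.16. *Il27* had 2.08 in ND Rag1-Tbet DKO liver and at most -4.48 in ND *Rag1*-/- liver, where it was at the limit after IRI. The bounds of *Ccl12* (at most -6.57 in ND Rag1-Tbet DKO and 2.51 in ND *Rag1*-/- liver) and *Cd40lg* (at most -21.99 and at least 3.63) rest on 1 well each, and the *Cd40lg* well of the ND Rag1-Tbet DKO non-IRI pool was read earlier than every housekeeping gene, so that its change of direction is not read as a difference.

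Between ND and HFD Rag1-Tbet DKO liver, *Il12b* had log2 folds of 3.23 and -2.34 and *Lta* of 2.95 and -1.01. *Ccl12* had at most -6.57 and 5.74, and *Cd40lg* at most -21.99 and at least 3.31. These 2 rest on the same single wells, and nothing is read from *Cd40lg*.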

How the results depend on the processing

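The counts of genes at least 2-fold higher (41) and lower (6) moved with the references. They were 19 and 36 with *Nodal*, *Il9* and *Csf1*, 19 and 35 with the deposited normalized values and 18 and 38 with raw Ct. Against the array's median Ct, 18 genes were lower. The median log2 fold of 1.20 was 0.54 with the median Ct of the array, -0.30 with *Nodal*, *Il9* and *Csf1*, -0.23 with the deposited values and -0.37 with raw Ct. With *Nodal*, *Il9* and *Csf1* 19 of the 41 genes were still higher and 9 were below 0. The log2 folds that changed sign were, in the order *Nodal*, *Il9* and *Csf1*, deposited values and raw Ct, -0.29, -0.22 and -0.36 for *Csf1*, -0.28, -0.21 and -0.35 for *Csf2*, -0.44, -0.37 and -0.51 for *Fasl*, -0.21, -0.13 and -0.28 for *Il10*, -0.19, -0.12 and -0.26 for *Il13*, -0.30, -0.24 and -0.37 for *Ppbp*, and -0.29, -0.22 and -0.36 for *Xcl1*. With *Nodal*, *Il9* and *Csf1*, *Ltb* was at -0.0033 and *Il17a* at -0.063, and *Il17a* was at -0.13 with raw Ct, where *Il1b* was at -0.05 and *Ltb* at -0.07. By construction, another reference adds 1 constant to every log2 fold; the deposited values imply a reference Ct that was 0.140 cycles higher after IRI, and the references behind them were not identified here. A Ct limit of 32 left *Adipoq* with only an upper bound, a log2 fold of at most 0.75. It also moved 8 other genes, with bounds of 2.26 for *Il12a*, 7.73 for *Osm* and -3.57 for *Ccl12*, and log2 folds or bounds of 2.25 for *Il2*, 2.40 for *Lta* and 2.73 for *Mstn*, beside *Il3* and *Cd40lg*; none of these changed direction. The 5 housekeeping genes, *Actb* and *Hsp90ab1*, leaving out *Actb* or *Hsp90ab1*, a 3-fold threshold and leaving out *Il3*, *Cd40lg* and *Csf2* kept both counts within 1.5 times. No paired analysis was possible because each condition is 1 pool. Late Ct values near 35 limit what 1 well can show.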

Other observations

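Genes that the rest of the series reads late were more often higher after IRI in ND Rag1-Tbet DKO liver. Genes were placed by their mean Ct in the other 6 pools, leaving out *Il3*, *Cd40lg* and *Csf2*, and only those measured in both pools were counted. Of 13 genes with a mean below 22, 3 were higher and the median log2 fold was -0.12. Of 23 genes between 22 and 26, 9 were higher, with a median of 0.13. Of 22 genes between 26 and 30, 14 were higher, with a median of 1.58, and of 15 genes from 30 on, 12 were higher, with a median of 2.75. In ND *Rag1*-/- liver, placed in the same way, the medians were 0.51, 0.76, 0.73 and 1.41. On HFD, Rag1-Tbet DKO liver had medians of 0.32, 0.99, 1.67 and 0.64, the last over 6 genes. The Ct of the other pools was used because that of the non-IRI pool is itself part of the fold, and this choice was made after the values had been seen. Ct lies nearest the limit in the last of these ranges, and the part of that in the pattern was not tested.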
